A study of Mus musculus with 12 samples.

Results

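*Lsm14b* and 9 genes that code for its partners in the storage and translational repression of maternal mRNA are described here, 10 of the 24259 genes for which a level was measured. They were chosen by name, as the rows of the FPKM table for *Lsm14b*, *Lsm14a*, *Ddx6*, *Eif4enif1*, *Eif4e1b*, *Ybx2*, *Cpeb1*, *Patl2*, *Zar1* and *Zar1l*, and each was found. The question was what relative level each of these mRNAs had in the translating and non-translating parts of the oocyte. Whether this differed in oocytes without *Lsm14b* was asked too. Lysates of about 1500 germinal vesicle (GV)-stage oocytes were run through sucrose gradients, and RNA of fractions 1 to 10 (the RNP pool, mRNA not on polysomes) and of fractions 11 to 28 (the polysome pool, mRNA loaded with several ribosomes) was sequenced. The 4 groups were the RNP and polysome pools of WT and *Lsm14b*-KO oocytes, with 3 libraries each and 12 in all. The mice were 3 weeks old, and all had received 5 IU of PMSG, a gonadotropin that drives follicle growth, 46 h before collection. The KO mice carried *Lsm14b* tm1a(KOMP)Mbp, a reporter inserted into the gene, which is present in every cell of the animal from conception and not only in the oocyte, and both genotypes were on a C57BL/6J background. The sources used here do not say whether the 3 libraries of a group came from separate animals, so the p-values measure the spread between these libraries, which may be technical.

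Growing oocytes make far more mRNA than they translate at once and keep part of it in ribonucleoprotein particles until meiosis resumes. LSM14 proteins bind the RNA helicase DDX6 and 4E-T (coded by *Eif4enif1*), which in turn holds the cap-binding proteins eIF4E and its oocyte form eIF4E1B away from the initiation complex. CPEB1 binds U-rich elements near the poly(A) signal and controls poly(A) tail length, YBX2 (MSY2) coats stored mRNA in germ cells, PATL2 is an oocyte form of the decapping activator PATL1, and ZAR1 and ZAR1L are oocyte proteins with a C-terminal zinc finger that bind the 3' UTRs of maternal mRNA. The values below are mRNA levels of these factors, not amounts of protein.

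FPKM (fragments per kilobase of transcript and per mega (M) of mapped fragments) was used for all levels, so levels of different genes can be compared per length, within a library. FPKM says nothing of the total mRNA of a pool, and in such bulk lysates fewer oocytes and less RNA per oocyte cannot be told apart. The depth was estimated at 4.84 to 7.91 M fragments per library. Of the 10 oocyte markers, all had a mean of at least 1 FPKM in each group, and their summed level was 6415 to 6876 FPKM in WT RNP, 8482 to 8988 in KO RNP, 20616 to 22246 in WT polysome and 23294 to 25590 in KO polysome libraries. *Gdf9* made up a large part of these sums, with means of 3006, 4318.5, 15413 and 17337 FPKM in the same order of groups. The summed level of 12 granulosa and cumulus cell markers was 27.2 to 33.8 FPKM in WT RNP, 38.3 to 59.7 in KO RNP, 22.2 to 73.1 in WT polysome and 74.8 to 96.2 in KO polysome libraries. In all 12 libraries *Tnfaip6*, *Ptx3* and *Lhcgr* of that list were at 0, while others of the list were not. The highest mean was that of *Cyp19a1* in WT RNP (23.0 FPKM), WT polysome (37.7 FPKM) and KO RNP libraries (30.9 FPKM). In KO polysome libraries it was that of *Inha* (43.4 FPKM). The 10 genes with the highest FPKM made up 34.7% of the summed FPKM of the second KO polysome library, against 11.6% to 14.7% in the other 11, and the calls that rest on it are also given without it.

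*Lsm14b* (chr2:180024987-180035465, plus strand, GRCm38) checked the genotype labels. Its level was 34.6, 29.3 and 27.4 FPKM in the WT RNP libraries and 11.3, 15.3 and 13.2 FPKM in the WT polysome libraries. In KO RNP libraries it was 0.893, 0.0627 and 0 FPKM, and in KO polysome libraries 0.260, 0 and 0.0876 FPKM. Each KO library lay far below each WT library of its pool. The mean of the KO libraries was 1.05% of WT in the RNP pool and 0.874% of WT in the polysome pool (two-sided exact permutation test, p = 0.1 in each pool, the smallest that 3 against 3 allow). By the estimated depth the KO values stand for 15.9, 1.00 and 0 fragments in the RNP pool and 3.98, 0 and 1.00 fragments in the polysome pool, and the libraries at 0 could hold up to 0.195 FPKM (RNP) and 0.245 FPKM (polysome), the level of 3 fragments. The log2 changes of the fit were -4.63 (SE 0.345, adjusted p = 5.66e-05) in the RNP pool and -3.67 (SE 0.415, adjusted p = 0.00271) in the polysome pool, and they depend on the value of 1 added to FPKM before the log. Without the second KO polysome library the polysome change was -3.60 (adjusted p = 0.0125).

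**Figure D1:**
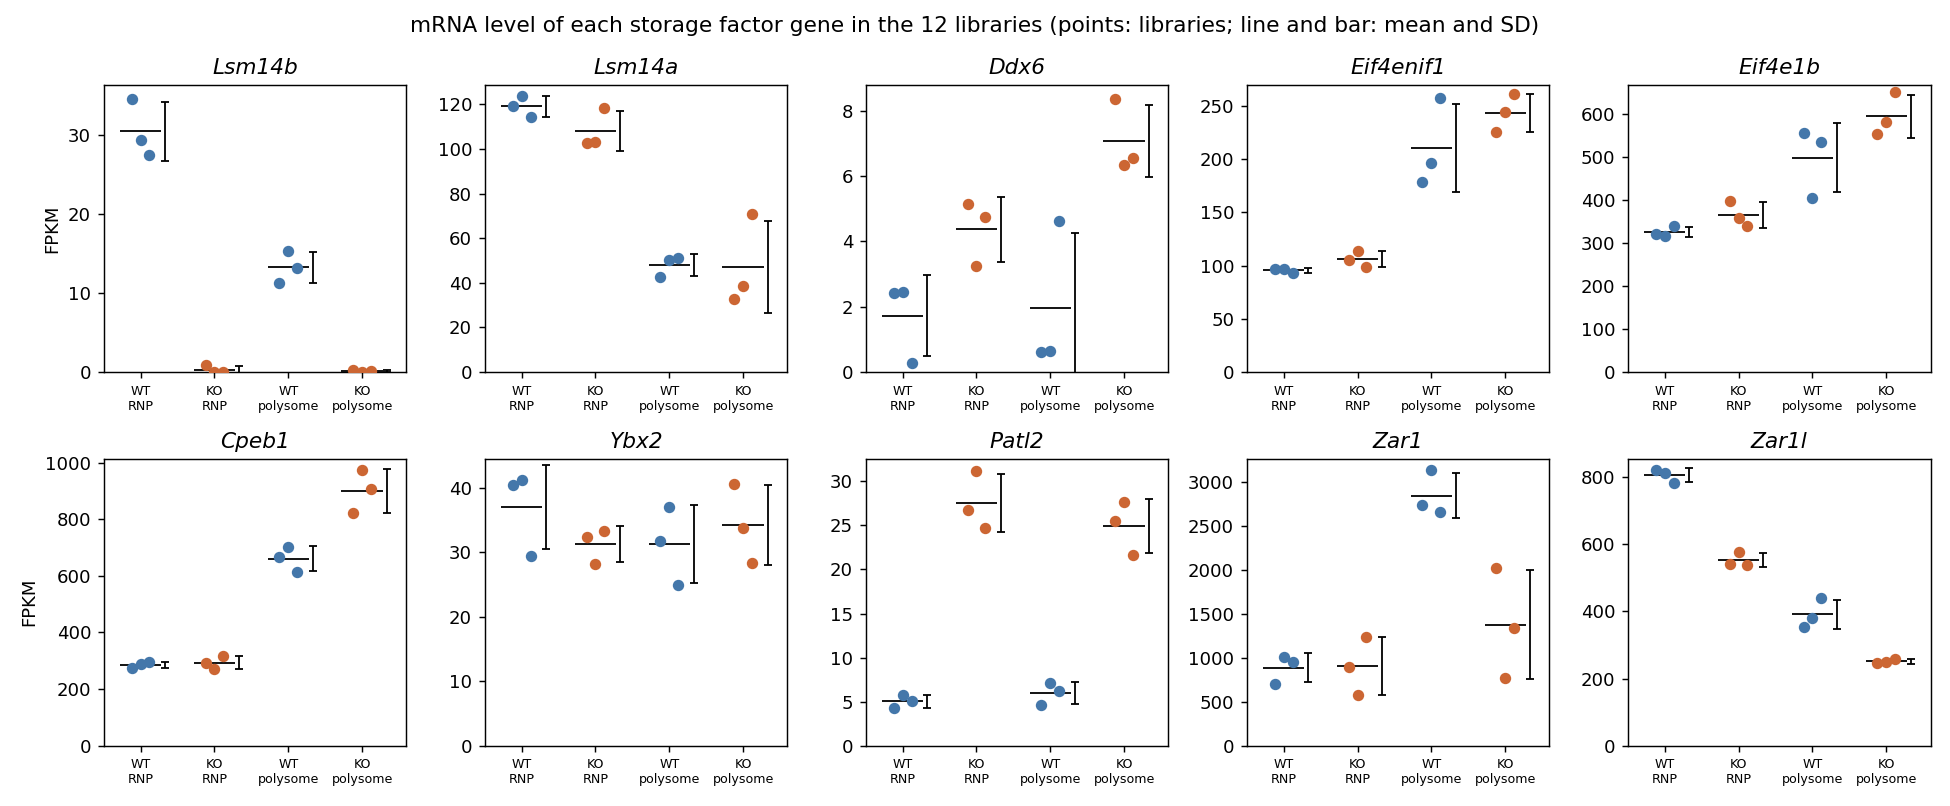
Level of each of the 10 mRNAs in FPKM (linear axes from 0, 1 panel per gene) in the 3 libraries of WT RNP, KO RNP, WT polysome and KO polysome pools, with points for libraries, lines for means and bars for SD (cut at 0 for *Ddx6* and *Lsm14b*). *Lsm14b* is near 0 in the 6 KO libraries, *Patl2* is higher and *Zar1l* lower in KO in both pools, and *Zar1* is lower in KO in the polysome pool.

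With WT and KO compared within each pool, 5 of the 10 mRNAs passed the test in the polysome pool. *Patl2* and *Cpeb1* rose, and *Lsm14b*, *Zar1* and *Zar1l* fell. In the RNP pool 3 passed, with *Patl2* higher and *Lsm14b* and *Zar1l* lower. The tests used limma on log2(FPKM + 1) over all genes with at least 1 FPKM in at least 3 libraries, with Benjamini-Hochberg adjusted p below 0.05 as a call, and all 10 mRNAs passed the filter in both pools. *Lsm14b* passed it through its WT libraries alone, and *Ddx6* had fewer than 3 WT libraries at 1 FPKM in each pool and so passed through KO. Of all genes tested, 10.4% were called in the polysome pool (989 of 9536) and 20.7% in the RNP pool (2057 of 9931). The median change of the 10 mRNAs was 0.18 against 0.10 for all genes in the polysome pool, and 0.01 against 0.05 in the RNP pool, on the log2 scale. The WT and KO libraries did not overlap for 6 of the 10 in the polysome pool, where 31.7% of all genes tested did not, and for 5 of the 10 in the RNP pool, where 39.2% did not. Each of these counts of calls and of groups apart holds *Lsm14b*, the gene knocked out, whose fall was set by the design. The counts of groups apart hold *Ddx6* too. The counts are therefore a description and no test of the 10 as a set.

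**Figure D2:**
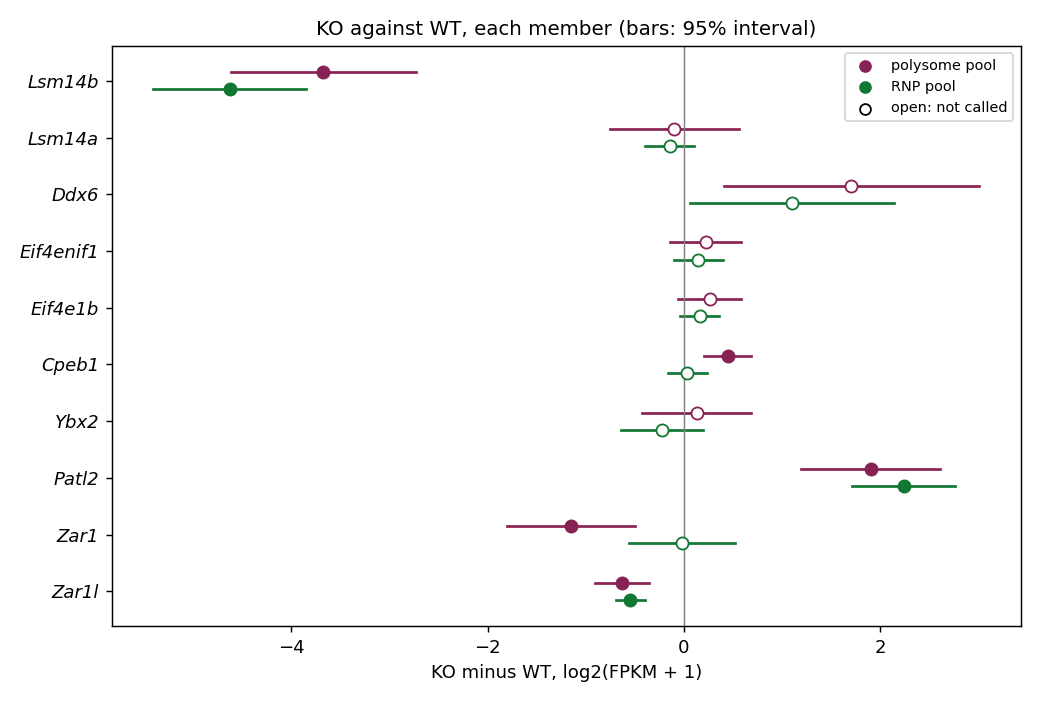
Difference of KO from WT in log2(FPKM + 1) for each mRNA in the polysome and RNP pools, with the 95% interval of the difference from limma as bars, filled points for adjusted p below 0.05 and open points for the rest. *Patl2* lies at 1.90 and 2.24, *Zar1l* at -0.63 and -0.54, and the interval of *Zar1* lies below 0 in the polysome pool and spans 0 in the RNP pool.

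The promoters of the 3 partner genes with the largest called changes in the polysome pool other than *Lsm14b* are shown, since an mRNA level in an oocyte starts from transcription during growth. The 250 bases before the transcription start of RefSeq (GRCm38.p6) are given, at chr2:122186190-122186439 for *Patl2*, chr5:72581085-72581334 for *Zar1* and chr5:150518160-150518409 for *Zar1l*, all read 5' to 3' on the minus strand. Capitals mark the motifs found on either strand, the E-box CANNTG and TAATTN, with any base at N. The E-box is bound by basic helix-loop-helix factors such as the oocyte factor FIGLA. TAATTN is a looser form of the element bound by the oocyte homeobox protein NOBOX, so not every match is that element.
Patl2: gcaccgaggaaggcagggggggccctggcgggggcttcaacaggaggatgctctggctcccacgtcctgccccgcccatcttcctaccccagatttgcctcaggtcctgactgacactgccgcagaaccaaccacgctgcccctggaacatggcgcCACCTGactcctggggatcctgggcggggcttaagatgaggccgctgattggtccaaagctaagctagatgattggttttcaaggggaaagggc
Zar1: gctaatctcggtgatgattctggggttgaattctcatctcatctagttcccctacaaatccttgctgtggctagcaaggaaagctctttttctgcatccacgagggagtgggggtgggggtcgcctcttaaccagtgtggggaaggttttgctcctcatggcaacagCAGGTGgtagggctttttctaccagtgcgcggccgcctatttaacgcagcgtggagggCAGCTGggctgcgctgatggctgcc
Zar1l: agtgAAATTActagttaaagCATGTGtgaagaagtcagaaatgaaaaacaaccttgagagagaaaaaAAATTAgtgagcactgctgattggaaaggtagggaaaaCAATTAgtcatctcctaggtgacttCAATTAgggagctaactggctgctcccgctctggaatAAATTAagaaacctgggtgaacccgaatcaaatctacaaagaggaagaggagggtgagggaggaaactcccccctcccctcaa
*Zar1l* held 5 matches of TAATTN and 1 E-box, *Zar1* held 2 E-boxes and *Patl2* 1 E-box, and neither of these held TAATTN. Of 32851 RefSeq promoters of this length, 66.2% held an E-box and 24.9% held TAATTN. The GC content was 42.8% for *Zar1l*, 55.6% for *Zar1* and 62.4% for *Patl2*, against a median of 52.4% for all promoters. GENCODE starts *Zar1* further upstream, at chr5:72581254, so most of its stretch, with both E-boxes, lies inside that annotated gene. The GENCODE start of *Zar1l*, at chr5:150518164, leaves only the last few bases of its stretch inside the gene. The matches describe these letters and not sites of binding.

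*Patl2* (chr2:122120108-122186189, minus strand) codes for an RNA-binding protein of the PAT1 family needed for oocyte maturation. Its level was 4.27, 5.74 and 5.13 FPKM in WT RNP libraries and 26.7, 31.2 and 24.7 FPKM in KO RNP libraries. In the polysome pool it was 4.63, 7.08 and 6.23 FPKM in WT and 25.5, 27.6 and 21.6 FPKM in KO. The lowest KO library was thus far above the highest WT library in both pools. PATL2 protein, by contrast, was lower in KO oocytes in the paper. The means were 5.46-fold higher in KO in the RNP pool (log2 change 2.24, SE 0.233, adjusted p = 0.000342) and 4.17-fold higher in the polysome pool (1.90, SE 0.313, adjusted p = 0.00916). The call held with each library left out in turn, with adjusted p from 0.000707 to 0.00332 in the RNP pool and from 0.0151 to 0.0480 in the polysome pool. The change of the polysome-to-RNP ratio with genotype was -0.34 on the log2 scale (95% interval -1.10 to 0.42, adjusted p = 0.785).

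*Zar1l* (chr5:150507055-150518164, minus strand) moved the other way. Its level was 821, 811 and 783 FPKM in WT RNP libraries and 542, 576 and 538 FPKM in KO RNP libraries. Its polysome level was 354, 381 and 439 FPKM in WT and 246, 249 and 259 FPKM in KO. No KO library reached the lowest WT library of its pool. The mean was 1.46-fold lower in KO in the RNP pool (log2 change -0.54, SE 0.0659, adjusted p = 0.000724) and 1.56-fold lower in the polysome pool (-0.63, SE 0.119, adjusted p = 0.0141). Without the second KO polysome library the polysome change was -0.63 with adjusted p = 0.0594, and without the third it was -0.65 with adjusted p = 0.0501. Without the intensity trend in the fit neither pool was called (adjusted p = 0.0615 for RNP and 0.140 for polysome).

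*Zar1* (chr5:72576806-72581254, minus strand), the first-described of the pair and a maternal-effect gene, had the highest mean of the 10 in each of the 4 groups. Its level was 701, 1012 and 952 FPKM in WT RNP libraries and 902, 584 and 1236 FPKM in KO RNP libraries, which overlapped. In the polysome pool it was 2747, 3142 and 2661 FPKM in WT and 2022, 776 and 1341 FPKM in KO. All 3 KO polysome libraries lay below the WT ones, with a wide spread among them. The polysome mean was 2.07-fold lower in KO (log2 change -1.15, SE 0.286, adjusted p = 0.0387), and the RNP means differed by -0.02 (95% interval -0.56 to 0.52, adjusted p = 0.970). Without the second KO polysome library the polysome change was -0.79 with adjusted p = 0.0462, and the call was lost without the third KO library (-1.18, adjusted p = 0.0912) and without each WT library (adjusted p from 0.0659 to 0.0841). It was also lost with a pseudocount of 0.1 (adjusted p = 0.0583), without the filter (0.129) and without the intensity trend (0.134). The ratio of polysome to RNP level changed by -1.13 on the log2 scale with genotype (SE 0.428, unadjusted p = 0.0202, adjusted p = 0.336), which was not called.

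*Cpeb1* (chr7:81347026-81455465, minus strand) was higher in KO in the polysome pool by a small margin. Its level was 275, 287 and 296 FPKM in WT RNP libraries and 293, 272 and 316 FPKM in KO RNP libraries. On polysomes it was at 666, 703 and 613 FPKM in WT and 820, 975 and 908 FPKM in KO. The RNP libraries overlapped and the polysome libraries did not. The polysome mean was 1.36-fold higher in KO (log2 change 0.45, SE 0.106, adjusted p = 0.0328), while the RNP difference was 0.04 (95% interval -0.16 to 0.24, adjusted p = 0.815). The polysome call was lost without the second KO library (0.39, adjusted p = 0.143), without the third KO library (adjusted p = 0.110), and without WT library 1 or 3 (adjusted p = 0.0682 and 0.0762), as well as without the filter (0.0782) and without the intensity trend (0.258). The change of the ratio with genotype was 0.41 (SE 0.133, unadjusted p = 0.00869, adjusted p = 0.246).

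*Ddx6* (chr9:44604892-44640731, plus strand), the helicase that LSM14 proteins bind, had the lowest level of the 10 in WT. It was 2.42, 2.46 and 0.286 FPKM in WT RNP libraries and 5.13, 3.24 and 4.73 FPKM in KO RNP libraries. Its polysome values were 0.600, 0.657 and 4.62 FPKM in WT and 8.35, 6.34 and 6.55 FPKM in KO. In both pools the KO libraries lay above the WT libraries, of which 1 in each pool stood apart from the other 2. DDX6 protein went the other way in the paper, which describes it as nearly depleted in KO oocytes. Neither change was called, at 1.71 in the polysome pool (SE 0.572, 95% interval 0.41 to 3.01, adjusted p = 0.0948) and 1.10 in the RNP pool (SE 0.461, adjusted p = 0.128). Without the third WT polysome library the polysome change was 2.30 (adjusted p = 0.0245), but both WT libraries left were then below the filter, so the gene entered that fit through KO alone and the value is a description.

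*Eif4enif1* (chr11:3202392-3244588, plus strand) and *Eif4e1b* (chr13:54783998-54788459, plus strand), which code for 4E-T and the oocyte cap-binding protein, did not pass the test between genotypes in either pool. *Eif4enif1* was at 97.0, 97.0 and 93.0 FPKM in WT RNP and 105, 114 and 98.8 FPKM in KO RNP libraries, and at 178, 197 and 257 FPKM in WT polysome and 225, 244 and 261 FPKM in KO polysome libraries. *Eif4e1b* was at 321, 318 and 339 FPKM in WT RNP and 398, 358 and 339 FPKM in KO RNP libraries, and at 556, 406 and 537 FPKM in WT polysome and 554, 581 and 652 FPKM in KO polysome libraries. The groups overlapped for both genes, except for *Eif4enif1* in the RNP pool, where the KO libraries lay above. The difference for *Eif4enif1* was 0.15 (95% interval -0.10 to 0.40) in the RNP pool and 0.22 (-0.14 to 0.58) in the polysome pool. For *Eif4e1b* it was 0.16 (-0.04 to 0.36) in the RNP pool and 0.26 (-0.06 to 0.58) in the polysome pool. The locus that the table gives for *Eif4enif1* spans 277481 bases, against 42197 for the annotated gene, and the part of other transcripts in its value was not tested.

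*Lsm14a* (chr7:34344646-34393315, minus strand), the paralog of *Lsm14b*, was the more abundant of the pair per length in every WT library, with 3.46 to 4.23 times the FPKM of *Lsm14b* in RNP libraries and 3.29 to 3.89 times in polysome libraries. Its level was 119, 124 and 114 FPKM in WT RNP and 103, 103 and 118 FPKM in KO RNP libraries, and 42.4, 50.1 and 51.3 FPKM in WT polysome and 32.5, 38.4 and 70.9 FPKM in KO polysome libraries. The genotypes overlapped in both pools, and the difference was -0.14 (95% interval -0.39 to 0.11, adjusted p = 0.406) in the RNP pool and -0.10 (-0.76 to 0.56, adjusted p = 0.864) in the polysome pool. The polysome difference had a positive sign without KO library 1 (0.13) or 2 (0.0088) and was -0.42 without KO library 3. These are mRNA levels, and in the paper LSM14A protein was barely detectable in fully grown oocytes. In large antral follicles the paper found it mainly in granulosa and cumulus cells. The 12 markers of those cells summed to at most 96.2 FPKM in any library, and their part in these values was not tested. The exons of *Lsm14a* overlap those of 2 antisense genes, *Gm12764* and 2310043P16Rik, whose reads cannot be told apart without strand.

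*Ybx2* (chr11:69935796-69941605, plus strand) passed neither test between genotypes. It was at 40.4, 41.1 and 29.5 FPKM in WT RNP, 32.4, 28.1 and 33.3 FPKM in KO RNP, 31.8, 37.0 and 25.0 FPKM in WT polysome and 40.6, 33.8 and 28.3 FPKM in KO polysome libraries. The genotypes overlapped in both pools, with a difference of -0.22 (95% interval -0.64 to 0.19, adjusted p = 0.434) in the RNP pool and 0.13 (-0.43 to 0.69, adjusted p = 0.785) in the polysome pool.

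Ordered by level per length, the WT polysome libraries held *Zar1* above *Cpeb1*, then *Eif4e1b*, *Zar1l*, *Eif4enif1*, *Lsm14a*, *Ybx2*, *Lsm14b*, *Patl2* and *Ddx6*. In this order the libraries of *Eif4e1b* and *Zar1l* overlapped and those of the other neighbours did not. In WT RNP libraries the order was *Zar1*, *Zar1l*, *Eif4e1b*, *Cpeb1*, *Lsm14a*, *Eif4enif1*, *Ybx2*, *Lsm14b*, *Patl2* and *Ddx6*, with overlap between *Zar1* and *Zar1l* and between *Ybx2* and *Lsm14b*. The group means ran from 1.72 FPKM (SD 1.24, n = 3) for *Ddx6* in WT RNP to 2850 FPKM (SD 256, n = 3) for *Zar1* in WT polysome libraries.

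Between the pools of WT oocytes, 7 of the 10 mRNAs differed. *Zar1*, *Eif4enif1*, *Cpeb1* and *Eif4e1b* had higher FPKM in the polysome pool, and *Lsm14a*, *Lsm14b* and *Zar1l* had higher FPKM in the RNP pool. *Ybx2*, *Patl2* and *Ddx6* did not pass the test. Of all genes tested in WT, 14.7% were called (1406 of 9574) and 34.6% had pools that did not overlap. The median of the 10 was 0.09 on the log2 scale, against -0.09 for all genes.

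The level of *Zar1* was 3.21-fold higher in the polysome pool of WT oocytes (log2 difference 1.69, SE 0.139, adjusted p = 0.000183), that of *Cpeb1* 2.31-fold (1.20, SE 0.101, adjusted p = 0.000199), that of *Eif4enif1* was also higher (1.11, SE 0.163, adjusted p = 0.00298) and that of *Eif4e1b* 1.53-fold (0.60, SE 0.135, adjusted p = 0.0201). For each of the 4, every polysome library lay above every RNP library. *Lsm14a* was 2.49-fold higher in the RNP pool (log2 difference of polysome from RNP -1.30, SE 0.161, adjusted p = 0.00140), *Lsm14b* 2.29-fold (-1.14, SE 0.262, adjusted p = 0.0216) and *Zar1l* 2.06-fold (-1.04, SE 0.106, adjusted p = 0.000503). Both LSM14 paralogs therefore had the higher FPKM in the RNP pool, while the ZAR1 paralogs differed in opposite directions. These are levels relative to each pool, and they do not show in which pool most of an mRNA lay. The call of *Lsm14b* was lost without any 1 of the WT RNP libraries (adjusted p from 0.0579 to 0.101), and that of *Eif4e1b* without WT polysome library 1 or 3 or any 1 WT RNP library (adjusted p from 0.0516 to 0.0679). The *Eif4e1b* call was lost too without the filter (adjusted p = 0.0593), by quantile normalization (0.43, adjusted p = 0.0644) and without the intensity trend (0.160). The differences of *Ybx2* (-0.24, 95% interval -0.80 to 0.32), *Patl2* (0.20, -0.71 to 1.10) and *Ddx6* (-0.01, -1.54 to 1.51) had intervals that spanned 0, widely so for the last.

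**Figure D3:**
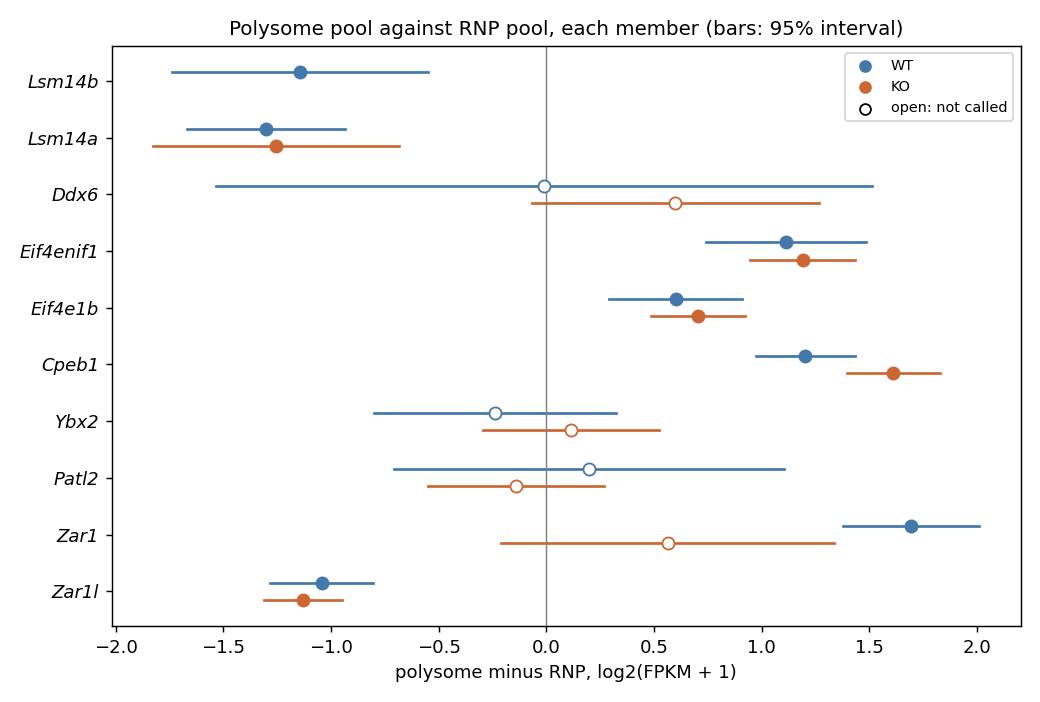
Difference of the polysome from the RNP pool in log2(FPKM + 1) for each mRNA in WT and in KO oocytes, with the 95% interval from limma as bars, filled points for adjusted p below 0.05 and open points for the rest, and no KO value for *Lsm14b*. *Cpeb1* lies at 1.20 in WT and 1.61 in KO, *Zar1l* at -1.04 and -1.13, and *Zar1* at 1.69 and 0.56.

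In KO oocytes the same comparison could be made for 9 of the 10 mRNAs, since *Lsm14b* did not pass the filter, and 5 were called. *Cpeb1* was 3.07-fold higher in the polysome pool (log2 difference 1.61, SE 0.0957, adjusted p = 6.72e-06), *Eif4enif1* 2.29-fold (1.19, SE 0.108, adjusted p = 6.79e-05) and *Eif4e1b* 1.63-fold (0.70, SE 0.0974, adjusted p = 0.000735). *Zar1l* was 2.19-fold higher in the RNP pool (-1.13, SE 0.0806, adjusted p = 1.80e-05) and *Lsm14a* 2.29-fold (-1.25, SE 0.253, adjusted p = 0.00556). Each of these 5 had the higher FPKM in the same pool as in WT. Without the second KO polysome library all 5 were still called, with adjusted p from 7.06e-05 for *Cpeb1* to 0.0194 for *Lsm14a*. *Zar1* was not called in KO (0.56, SE 0.342, 95% interval -0.21 to 1.34, adjusted p = 0.256), and without the second KO polysome library it was (0.93, adjusted p = 0.0471). Of all genes tested in KO, 29.2% were called (2881 of 9851) and 44.2% had pools that did not overlap, as did 6 of the 9. *Ddx6* was the sixth, with higher polysome values and no call (0.60, 95% interval -0.07 to 1.27, adjusted p = 0.164).

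The polysome-to-RNP ratio was then compared between genotypes, by a term for genotype and pool together in a fit of the 12 libraries. Not 1 of the 10 mRNAs was called by limma, among 26 of 10949 genes (0.237%), and 2 of the 10, *Cpeb1* and *Zar1*, had an unadjusted p below 0.05, as did 1220 of all genes. *Lsm14b* is counted among the 10, but its KO values were near 0 in both pools and its fitted change of ratio is not given. For *Lsm14a* the change of the ratio was 0.05 (95% interval -0.65 to 0.74), for *Eif4enif1* 0.08 (-0.34 to 0.49), for *Eif4e1b* 0.10 (-0.26 to 0.47) and for *Zar1l* -0.09 (-0.36 to 0.18). For *Ybx2* it was 0.35 (-0.30 to 1.00) and for *Ddx6* 0.61 (-1.02 to 2.24), intervals too wide to exclude a change of 1 on the log2 scale.

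Related genes were also compared within each library, where the scaling of the library cancels. The level of *Zar1* was 0.854, 1.25 and 1.22 times that of *Zar1l* in WT RNP libraries and 7.75, 8.24 and 6.06 times in WT polysome libraries. In KO it was 1.67, 1.01 and 2.30 times in RNP and 8.22, 3.12 and 5.17 times in polysome libraries. The pools were apart in both genotypes (two-sided exact permutation test, p = 0.1 for each, the smallest possible), and the genotypes overlapped in both pools (p = 0.3 for each). *Eif4e*, the general cap-binding protein gene, gave the oocyte form *Eif4e1b* a ratio of 1.27, 1.18 and 1.45 in WT RNP and 0.923, 0.807 and 0.826 in KO RNP libraries, and of 2.12, 2.26 and 2.84 in WT polysome and 1.90, 1.64 and 1.74 in KO polysome libraries. This ratio was lower in each KO than in each WT library of its pool (exact p = 0.1, the smallest possible, in both). Of the pair, *Eif4e* was called higher in KO in both pools, as given below, and *Eif4e1b* was called in neither. The ratio of the germ cell Y-box gene *Ybx2* to the general *Ybx1* was higher in each KO library, with medians of 1.37 in KO and 1.10 in WT in the RNP pool and of 6.56 in KO and 3.66 in WT in the polysome pool (exact p = 0.1, the smallest possible, in both). Mean *Ybx1* was 33.4 FPKM in WT and 21.4 in KO RNP libraries, and 9.72 and 5.15 in polysome libraries. Its log2 changes were -0.61 (RNP) and -0.80 (polysome), against -0.22 and 0.13 for *Ybx2*, and none of these was called. The p-values of these ratios are not adjusted over the 12 comparisons made, and none could pass a threshold of 0.05.

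**Figure D4:**
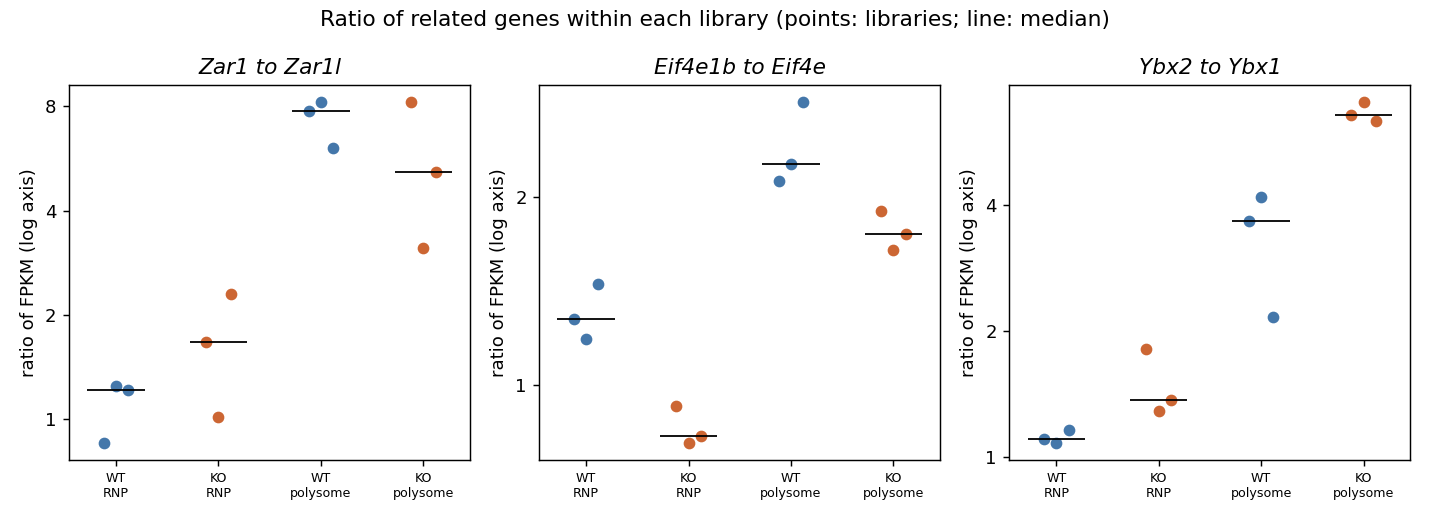
Ratio of FPKM of *Zar1* to *Zar1l*, *Eif4e1b* to *Eif4e* and *Ybx2* to *Ybx1* within each of the 12 libraries (log axes, 1 point per library, lines for medians). *Zar1* to *Zar1l* is between 0.854 and 2.30 in RNP libraries and between 3.12 and 8.24 in polysome libraries, and *Eif4e1b* to *Eif4e* is lower in KO in both pools.

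Other genes of the same pathways were read from 4 lists. Of decapping and P-body factors, which remove the cap of mRNA and start its decay, 13 of 16 were tested in each pool between KO and WT. Of these, 1 fell and none rose in the polysome pool, and in the RNP pool 2 fell and none rose, shares of 13 that lie near or below the 10.4% and 20.7% of all genes called, at a median change of -0.27 (all genes 0.10) and -0.04 (all genes 0.05). *Dcp1a*, which codes for the activating partner of the decapping enzyme, fell in both pools, by 1.25 in the polysome pool (SE 0.161, adjusted p = 0.00368) and by 1.35 in the RNP pool (adjusted p = 5.02e-05) on the log2 scale, and the polysome call held without the second KO library (-1.35, adjusted p = 0.0104). Its mean was 258 FPKM in WT and 107 FPKM in KO polysome libraries, and 298 and 116 FPKM in RNP libraries. *Dcp2*, the decapping enzyme itself, fell in the RNP pool (-1.21, adjusted p = 0.0199), from a mean of 9.01 FPKM to 3.35 FPKM, a call that was lost without KO RNP library 2 or 3 (adjusted p = 0.0635 and 0.0768).

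Of the eIF4E family and its binding proteins, 7 of 8 were tested in the polysome pool and 8 in the RNP pool, and *Eif4e* alone was called, higher in KO in both. Its means were 210 FPKM in WT and 340 FPKM in KO polysome libraries (log2 change 0.70, adjusted p = 0.0366), and 252 and 429 FPKM in RNP libraries (0.77, adjusted p = 0.000476). The polysome call was lost without KO library 2 or 3 (0.67 and 0.63, adjusted p = 0.126 and 0.130) or WT library 2 or 3 (adjusted p = 0.0834 and 0.0816). The list's median was 0.09 in the polysome and 0.14 in the RNP pool, against 0.10 and 0.05 for all genes. Of all genes tested, 10.4% and 20.7% were called in these pools. Of Y-box and CPEB paralogs, 4 of 5 were tested and *Cpeb4*, a relative of *Cpeb1* that acts later in meiosis, was the only one called, lower in KO in both pools (-1.95, adjusted p = 0.0302 in the polysome pool, and -1.35, adjusted p = 0.0460 in the RNP pool). Its means were 12.9 FPKM in WT and 2.65 FPKM in KO polysome libraries. Its polysome call was lost without KO library 1 or 2 (-1.95 and -1.68, adjusted p = 0.0838 and 0.104) or WT library 1 or 2 (adjusted p = 0.0518 and 0.0740), and its RNP call without KO library 2 or 3 or WT library 1 or 2 (adjusted p from 0.0922 to 0.145). The list's medians were -0.29 and -0.42. With 4 genes tested, 1 call is too few to set against the 10.4% and 20.7% of all genes called.

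Of other RNA-binding proteins of cytoplasmic granules, 17 of 17 were tested in the polysome pool, where 1 fell, and 16 in the RNP pool, where 2 rose and 1 fell, at medians of 0.21 and 0.10. These shares lie below the 10.4% and 20.7% of all genes called in the 2 pools, so the calls are not a trait of the list. *Dazl*, a germ cell activator of translation, fell in both pools, from a mean of 60.2 to 16.1 FPKM in polysome libraries (-1.79, adjusted p = 0.0174) and from 93.8 to 30.7 FPKM in RNP libraries (-1.58, adjusted p = 0.000141). Its polysome call was lost without the second KO library (-1.54, adjusted p = 0.0573). *Elavl2*, a relative of HuR expressed in oocytes, rose in the RNP pool (0.81, adjusted p = 0.00388), as did *Rbpms2* (0.31, adjusted p = 0.0193), whose call was lost without any 1 of the KO RNP libraries or without WT RNP library 2 (adjusted p from 0.0520 to 0.0734). In the ratio of polysome to RNP level, no gene of the 4 lists was called between genotypes by limma, among the 44 tested, of which 3 had an unadjusted p below 0.05.

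**Figure D5:**
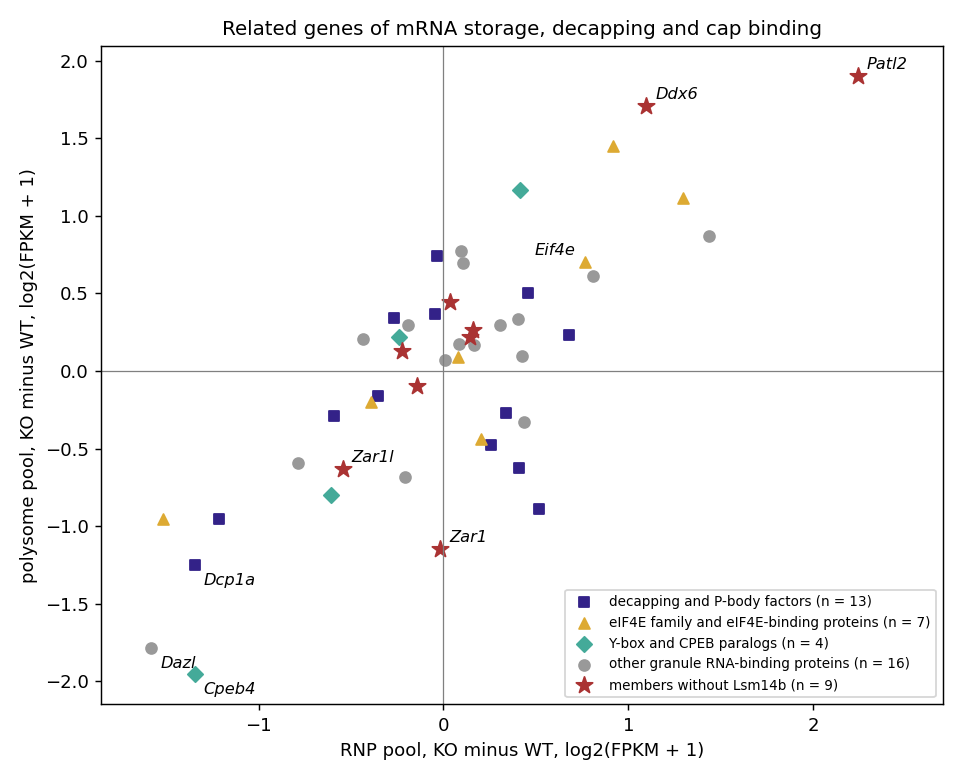
Difference of KO from WT in log2(FPKM + 1) in the RNP pool (horizontal) and in the polysome pool (vertical), for the genes of 4 lists tested in both pools and for the 9 storage factor mRNAs other than *Lsm14b*, with 1 point per gene. *Dazl*, *Cpeb4* and *Dcp1a* lie at the lower left (-1.58 and -1.79, -1.35 and -1.95, -1.35 and -1.25), *Patl2* at the upper right (2.24 and 1.90), and *Zar1* near 0 on the horizontal axis and at -1.15 on the vertical.

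The element bound by CPEB1 was looked for in the members' own mRNAs, since they are maternal mRNAs too. TTTTAT or TTTTAAT (DNA letters) on the transcript strand was found in the last 100 bases of the GENCODE M21 transcripts of 2 of the 10, *Lsm14a* and *Ybx2*, and was present in 20.2% of the 8837 genes tested in the RNP pool that had such a window, so the share is near the background. The annotated 3' UTR of *Zar1l* has only 14 bases, which leaves little to search. A stretch of 30 bases around each match is shown, read on the transcript strand, with the match in capitals and, in *Lsm14a*, the AATAAA poly(A) signal that follows it in capitals too. Another AATAAA in *Lsm14a* overlaps the match and is in capitals only where they share letters.
Lsm14a: gtgtTTTTAATaaaggccatggAATAAAga
Ybx2: gccaTTTTATgaactgtcatgtgccacctg
The first lies at chr7:34344662-34344691 on the minus strand and the second at chr11:69941540-69941569 on the plus strand (GRCm38). The element starts 42 bases from the transcript end in *Lsm14a* and 62 bases in *Ybx2*. The locus given with the FPKM of *Lsm14a* has its 3' end at chr7:34344718, so the element lies beyond the gene model that was measured. In *Ybx2* no AATAAA or ATTAAA poly(A) signal was found in the window. In WT oocytes *Lsm14a* had the higher FPKM in the RNP pool, and *Ybx2* did not pass the test between the pools.

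The 5 genes whose level over the 12 libraries was most like that of *Lsm14b* were *Pfdn4*, *Pabpn1l*, *Zc3h6*, *Rilpl1* and *Spry1*, by the root mean square difference of log2(FPKM + 1) after centring each gene on its mean, among the 6679 genes whose mean reached 5 FPKM. The difference was 0.488 for *Pfdn4*, which was at 570 to 651 FPKM in WT RNP, 274 to 340 FPKM in WT polysome, 42.1 to 59.4 FPKM in KO RNP and 33.9 to 42.9 FPKM in KO polysome libraries. It was 0.547 for *Pabpn1l*, which codes for an oocyte poly(A)-binding protein and was at 303 to 361, 114 to 175, 19.9 to 31.2 and 6.51 to 14.5 FPKM in the same groups. Both were lower in each KO than in each WT library. In WT they were higher in each RNP than in each polysome library, as *Lsm14b* was. The 5 genes were picked for this likeness, so the shared pattern is a description and no test. The likeness also depends on the 1 added to FPKM, since the KO means of *Lsm14b* were only 0.319 FPKM (RNP) and 0.116 FPKM (polysome). Among the other members *Zar1l* came closest, with a difference of 1.83 and rank 832.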

How the data were processed

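Gradient pools (polysome and RNP) from GV oocytes of both genotypes gave RNA that was amplified by Smart-seq2 and sequenced, with 3 libraries in each of 4 groups taken from the sample labels. Reads were aligned by the authors to mm10 (TopHat2 2.0.13), who calculated the deposited FPKM per gene symbol with Cufflinks 2.2.1. Cuffnorm is also named, without its role. Columns of fold changes, p-values and q-values from the authors' Cuffdiff comparisons were not used. Sources differ on the densest sucrose and on the kit for libraries. FPKM holds no read counts. The depth was estimated from steps of low values with transcript length less 200 bases, and only 45.1% to 67.5% of these values lay within 0.06 of a whole number of fragments, so it is approximate.

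log2(FPKM + 1) was fitted with limma 3.58.1 in R 4.3.3 (empirical Bayes, intensity trend, no block), on genes with at least 1 FPKM in at least 3 libraries of a comparison, with Benjamini-Hochberg adjustment over all genes at 0.05. Errors are SE of the fit or SD, and intervals are 95%. The limma fits were also run on simulated data with independent noise. Those data held no effects shared by a library or a gradient, so they cannot test for such effects here. Single ratios were compared by exact permutation tests. Positions came from GENCODE M21 (GRCm38), and promoters from RefSeq, where 8 of 10 members matched by symbol. Figures used Python 3.11.15, pandas 2.3.3, numpy 2.4.6 and matplotlib 3.10.9.

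The members, lists and tests were chosen with earlier results of these data known. Genes named are the 10 members, up to 4 of each pathway list with the lowest adjusted p between KO and WT, the 5 genes nearest to *Lsm14b* in profile, and neighbours within 500000 bases by counts. *Gdf9*, *Tnfaip6*, *Ptx3*, *Lhcgr*, *Cyp19a1*, *Inha*, the antisense genes and the neighbours called by the test fall outside this rule and were named after their values were seen. Alternatives were pseudocounts of 0.1 and 5, no filter and a filter at 5 FPKM, rescaling to the same median, quantile normalization, no intensity trend, the replicate number as a block, and each library left out in turn. The block within a genotype, and leaving out libraries for genes that are not members, were added after seeing the data.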

Additional observations from a re-analysis of the deposited data

How the results depend on the processing

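No pairing by replicate number was seen, as the deviations of same-numbered libraries from their group means correlated across genes at -0.021 to 0.026. This cannot show that the libraries are unpaired, because no source says what the numbers mark. The 2 pools are fractions of sucrose gradients and may share them. The main fits treat the pools as independent, and a pairing in another order was not tested. With the replicate block, 11 genes were called in the ratio, and 0 with a replicate block within genotype, against 26 without, while between genotypes 672 genes were called on polysomes and 1799 in RNPs, 1165 between the pools of WT and 2720 between those of KO. The block ended the call of *Cpeb1* in the polysome pool (adjusted p = 0.0663) and of *Lsm14b* between the pools of WT (0.0521), and brought one for *Zar1* between those of KO (0.0413). Without a filter 545 genes and 3 members were called in the polysome pool. Without an intensity trend 508 genes and 2 members were called there, 728 genes between the pools of WT and 6 in the ratio. Among members that were not called, *Zar1* in the RNP pool was 0.046 after rescaling, and by quantile normalization *Eif4e1b* was -0.0060 and *Cpeb1* -0.094 there. *Ddx6* between the pools of WT was 0.0013 with a pseudocount of 0.1, 0.019 with 5, 0.011 after rescaling and 0.28 by quantile normalization. With each library left out in turn, 383 to 790 genes and 2 to 5 members were called in the polysome pool, 1255 to 1911 genes and 2 to 3 members in the RNP pool, 780 to 1212 genes between the pools of WT, 2030 to 2909 between those of KO and 0 to 46 in the ratio. The sign also turned for members not called, *Lsm14a* (-0.42 to 0.13) and *Ybx2* (-0.019 to 0.26) in the polysome pool, *Zar1* (-0.27 to 0.27) and *Cpeb1* (-0.018 to 0.090) in the RNP pool, *Ddx6* between the pools of WT (-0.48 to 0.30), *Ybx2* between those of KO (-0.012 to 0.24), and in the ratio *Lsm14a* (-0.28 to 0.27), *Eif4enif1* (-0.035 to 0.23) and *Eif4e1b* (-0.039 to 0.19). *Lsm14b* between genotypes has no value without a WT library, since the filter asks for 3. Of 745 values of single members under all alternatives, 30 lost and 3 gained a call. The cause of these changes was not tested, and low values such as those of *Ddx6* rest on few fragments.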

Other observations

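The neighbours of *Lsm14b* on chromosome 2 were also read, since the KO allele carries an insertion there. The table holds 19 genes within 500000 bases of *Lsm14b*, of which 7 were tested between KO and WT in the polysome pool and 8 in the RNP pool. In the polysome pool 1 was called, *Slco4a1*, lower in KO (log2 change -1.69, SE 0.456, adjusted p = 0.0495), against 10.4% of all genes, and in the RNP pool 2 were called, against 20.7% of all genes, *Slco4a1* (-0.93, adjusted p = 0.0145) and *Ss18l1* (-1.66, adjusted p = 0.0150). The polysome call of *Slco4a1* was lost without KO library 2 or 3 or any 1 WT library (adjusted p from 0.0847 to 0.149), its RNP call without KO library 1 or 3 (adjusted p = 0.0606 and 0.0553), and that of *Ss18l1* without KO library 1 (adjusted p = 0.0511). *Ss18l1* starts 7044 bases downstream of *Lsm14b*, and its mean was 25.5 FPKM in WT and 7.12 FPKM in KO RNP libraries. *Slco4a1*, a transporter gene, starts 420780 bases downstream. The nearest gene, *Psma7*, ends 909 bases away on the other strand and was not called in either pool (-0.50, adjusted p = 0.388 in the polysome pool, and 0.34, adjusted p = 0.313 in the RNP pool). The medians of the genes tested were -0.50 in the polysome and -0.11 in the RNP pool, against 0.10 and 0.05 for all genes.

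The oocyte markers also moved between genotypes. Of 10, 4 rose and 1 fell in KO in the polysome pool, and 5 rose and 1 fell in the RNP pool. Of all genes tested, 10.4% and 20.7% were called in these pools. The medians of the oocyte markers were 0.53 and 0.36, against 0.10 and 0.05 for all genes. Without the second KO polysome library 1 rose and 1 fell in the polysome pool, where 398 of 9077 genes were then called. Of the granulosa and cumulus cell markers, 5 of 12 were tested in the polysome pool and 3 rose (3 were tested and 0 called by limma without the second KO library, with 1 at an unadjusted p below 0.05), and 3 were tested in the RNP pool and 1 rose. None of 1 theca and stroma marker and 2 blood and immune markers tested in the polysome pool was called, nor of the 2 blood and immune markers tested in the RNP pool.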
